A study of Mus musculus with 2 samples.

Results

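The CXC chemokines examined here were the 3 ligands of the receptor CXCR3 (Cxcl9, Cxcl10 and Cxcl11) and 3 further members of the family, Cxcl1, Cxcl2 and Cxcl16. They were taken as the probe sets of the array whose only gene symbol in the platform annotation was 1 of these 6 names, and made up 6 of 12393 genes (8 of 20380 probe sets with a single symbol). Of the 6 genes, 5 gave a signal above the floor defined below on at least 1 array. Cxcl1, a neutrophil attractant, did not.

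Levels of messenger RNA were measured on Affymetrix mouse 430A arrays in RAW 264.7, a macrophage-like mouse tumour cell line. One treatment was IFNg (interferon gamma, 1000 U/ml) for 4 h, and the other was the same dose and time of IFNg together with 300 uM adenosine, so IFNg was shared by both. The comparison asks how adenosine alters the response of IFNg-activated macrophages. RNA from 2 experiments was pooled for each treatment and hybridized to 1 array, which leaves no replicate and no test, and no untreated array was analysed here. Fewer cells making a transcript and less RNA per cell cannot be told apart in such material.

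CXC chemokines are small secreted proteins that guide leukocytes. Cxcl9, Cxcl10 and Cxcl11 are induced by interferons in macrophages and attract activated T cells and natural killer cells through CXCR3, whereas Cxcl1 and Cxcl2 are induced through NF-kB by inflammatory stimuli and attract neutrophils through CXCR2. Cxcl16 belongs to neither class. It is made as a membrane-anchored protein that binds the receptor CXCR6 and, once shed, attracts T cells. The 3 CXCR3 ligand genes lie in 1 cluster on mouse chromosome 5, Cxcl1 and Cxcl2 are neighbours in a separate cluster of the same chromosome, and Cxcl16 lies on chromosome 11. RefSeq lists Cxcl11 as a transcribed pseudogene in the C57BL/6J reference assembly GRCm38.p6 and the other 5 genes as protein coding.

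Promoter windows are shown for Cxcl9 and Cxcl10, CXCR3 ligand genes of 1 cluster with unlike ratios, and for Cxcl2, the measured neutrophil attractant. RefSeq windows of assembly GRCm38.p6 were matched by symbol for 4 of the 6 members, and not for Cxcl11 or Cxcl16. Each sequence holds the 250 bases before the transcription start, 5′ to 3′ on the gene's own strand, with motif matches in capitals. The windows are chr5:92328080-92328329 on the minus strand for Cxcl9, chr5:92348890-92349139 on the minus strand for Cxcl10 and chr5:90903649-90903898 on the plus strand for Cxcl2.
Cxcl9: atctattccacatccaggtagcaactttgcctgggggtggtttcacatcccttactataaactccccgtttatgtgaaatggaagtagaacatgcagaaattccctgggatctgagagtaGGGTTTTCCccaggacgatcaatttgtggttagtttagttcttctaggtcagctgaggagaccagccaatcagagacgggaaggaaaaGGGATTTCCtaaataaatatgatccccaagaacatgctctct
Cxcl10: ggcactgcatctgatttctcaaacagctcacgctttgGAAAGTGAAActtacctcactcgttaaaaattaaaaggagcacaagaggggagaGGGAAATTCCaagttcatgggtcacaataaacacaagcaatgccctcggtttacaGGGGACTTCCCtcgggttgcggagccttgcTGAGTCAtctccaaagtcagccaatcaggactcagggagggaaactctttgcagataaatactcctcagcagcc
Cxcl2: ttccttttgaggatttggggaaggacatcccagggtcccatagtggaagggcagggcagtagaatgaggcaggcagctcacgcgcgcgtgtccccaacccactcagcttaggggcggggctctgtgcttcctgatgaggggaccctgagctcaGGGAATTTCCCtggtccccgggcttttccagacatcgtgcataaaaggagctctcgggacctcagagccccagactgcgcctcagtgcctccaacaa

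Motifs of the factors best known at these genes were searched on both strands. The interferon-stimulated response element, bound by IRF proteins and searched as GAAA, any 2 bases and GAAA again, was found in Cxcl10 alone among the 4 windows, from -213 to -204, and in 2.98% of all 32851 promoter windows of the same length. The NF-kB consensus had matches in Cxcl10 (from -159 to -150, and overlapping ones between -104 and -94), in Cxcl2 (overlapping, between -97 and -87) and in Cxcl1 (overlapping, between -71 and -61), and in 7.25% of all windows. A shorter NF-kB form, GGGNNTTCC, was added after the sequences had been seen. It matched Cxcl9 from -130 to -122 and from -42 to -34 and overlapped the consensus in Cxcl10 from -103 to -95, and 4.98% of all windows held it. The AP-1 motif TGANTCA was found in Cxcl10 from -74 to -68 and in 6.75% of all windows. The cAMP response element TGACGTCA was in none of the 4 windows and in 1.55% of all. These matches describe the letters of the windows only.

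**Figure D1:**
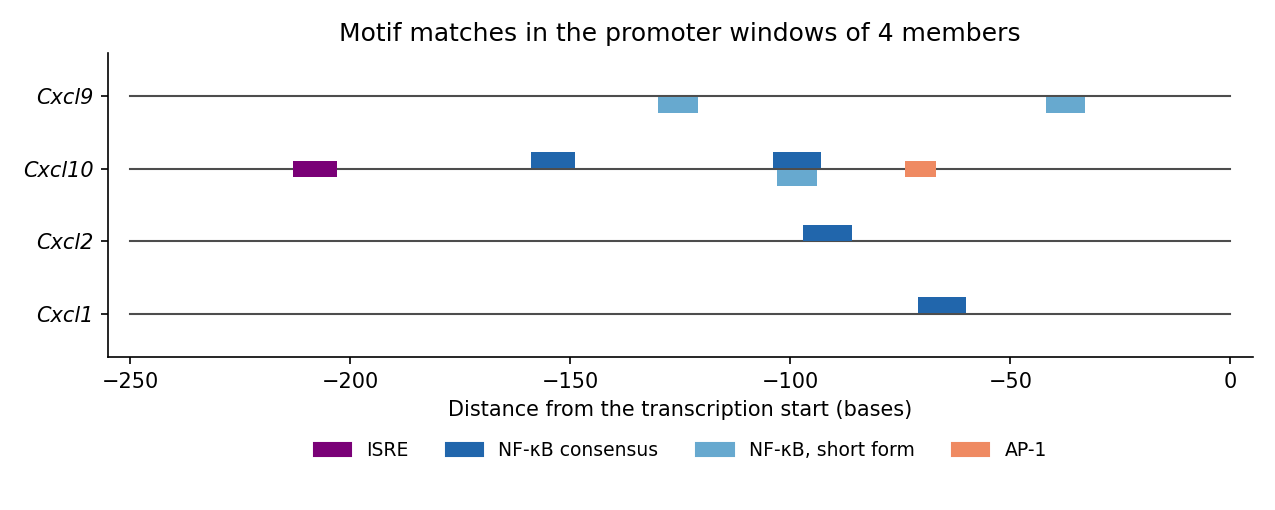
Motif matches (coloured blocks, drawn to scale) in the 250 bases before the transcription start of Cxcl9, Cxcl10, Cxcl2 and Cxcl1; the horizontal axis is the distance from the start in bases. The Cxcl10 window holds matches of all 4 kinds drawn, the Cxcl9 window 2 matches of the short NF-kB form, and the Cxcl2 and Cxcl1 windows overlapping matches of the NF-kB consensus.

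The adenosine array was dimmer throughout, with a median deposited signal of 15.2 against 45.9 on the IFNg array over 22626 gene probe sets. Signals of the adenosine array were therefore multiplied by 2.82, which sets the median log2 ratio of adenosine plus IFNg over IFNg to 0 across probe sets bright on both arrays. Hybridization controls (18 probe sets) had a deposited median log2 ratio of -0.53, against -1.50 for the gene probe sets used for centring. Scaled signals below a floor of 44.0, the 50th percentile, were raised to it, and genes below it on both arrays were not counted as measured. Every level below is a scaled signal unless called deposited, and every ratio is relative to the array median. Because no replicate existed, error is given as the SD of the log2 ratio among probe sets that read 1 gene, which was 0.42 for genes as bright as the 3 CXCR3 ligands, 0.52 for Cxcl16 and 0.55 for Cxcl2. Neither culture-to-culture nor array-to-array variation is part of it. Macrophage markers were measured in 11 of 11 cases, with summed signals of 36008 and 49759 on the IFNg and adenosine arrays and a median log2 ratio of 0.31 that became -1.18 in the deposited values and -0.66 when scaled on the hybridization controls. None of 9 neutrophil markers was above the floor on either array (sums of 82.0 and 98.7), nor were 9 markers of fibroblasts and endothelium (sums of 31.0 and 68.5), and of 8 T and natural killer cell markers only Zap70 was (sums of 67.9 and 131).

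The CXCR3 ligands did not behave as a block. Cxcl9 and Cxcl11 were several-fold lower with adenosine, while Cxcl10 stayed close to the array median, and among the other members Cxcl2 was higher and Cxcl16 slightly lower. Of the 5 measured members, 2 were at least 2-fold lower, against 10.1% of all 6818 measured genes, and 1 was at least 2-fold higher, against 4.52%. In the deposited values 4 members were at least 2-fold lower, against 78.8% of 7117 measured genes, and none was 2-fold higher, against 0.141%. The median log2 ratio was -1.83 for the 3 CXCR3 ligands and 0.46 for the 2 other measured members, against -0.08 for all measured genes. The ranges of these small groups overlapped, since Cxcl10 lay between Cxcl16 and Cxcl2.

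Cxcl9, the CXCR3 ligand known as a monokine induced by IFNg, had a signal of 3065 with IFNg and 491 with adenosine added. The adenosine array was the lower one, and the log2 ratio was -2.64 ± 0.42 (SD between probe sets), or 6.24-fold lower. Of all measured genes, 33 had a lower ratio. In deposited values the signals were 3065 and 174. Ranked among the 22626 gene probe sets of its own array, which needs no scaling, the Cxcl9 probe set went from place 535 to place 3637.

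Cxcl11, a further CXCR3 ligand, was represented by a pair of probe sets. The brighter gave 5032 with IFNg and 1419 with adenosine, a log2 ratio of -1.83 ± 0.42 and 3.55-fold lower, and 136 measured genes had a lower ratio. Its place on the array went from 230 to 1402. The dimmer probe set read 94.4 and 26.2, the latter below the floor, so that its log2 ratio of -1.10 is bounded by the floor. Without the floor it was -1.85, against -1.83 for the brighter probe set, although the dimmer signals were near the range where values are least certain.

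Cxcl10, a CXCR3 ligand induced by interferons of all types, read 6136 and 6521. The adenosine array was marginally the higher, with a log2 ratio of 0.09 ± 0.42, which is smaller than the scatter between probe sets. Its place among all probe sets was 121 on the IFNg array and 223 on the adenosine array. Genes as bright as Cxcl10 tended to have ratios above 0 after centring: the loess curve of ratio on signal stood at 0.40 there, and with the curve removed the Cxcl10 ratio was -0.31. It was -0.33 with quantile scaling, -0.88 when scaled on the hybridization controls and -1.41 as deposited (6136 against 2313), so the direction of the Cxcl10 difference depended on the scaling.

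**Figure D2:**
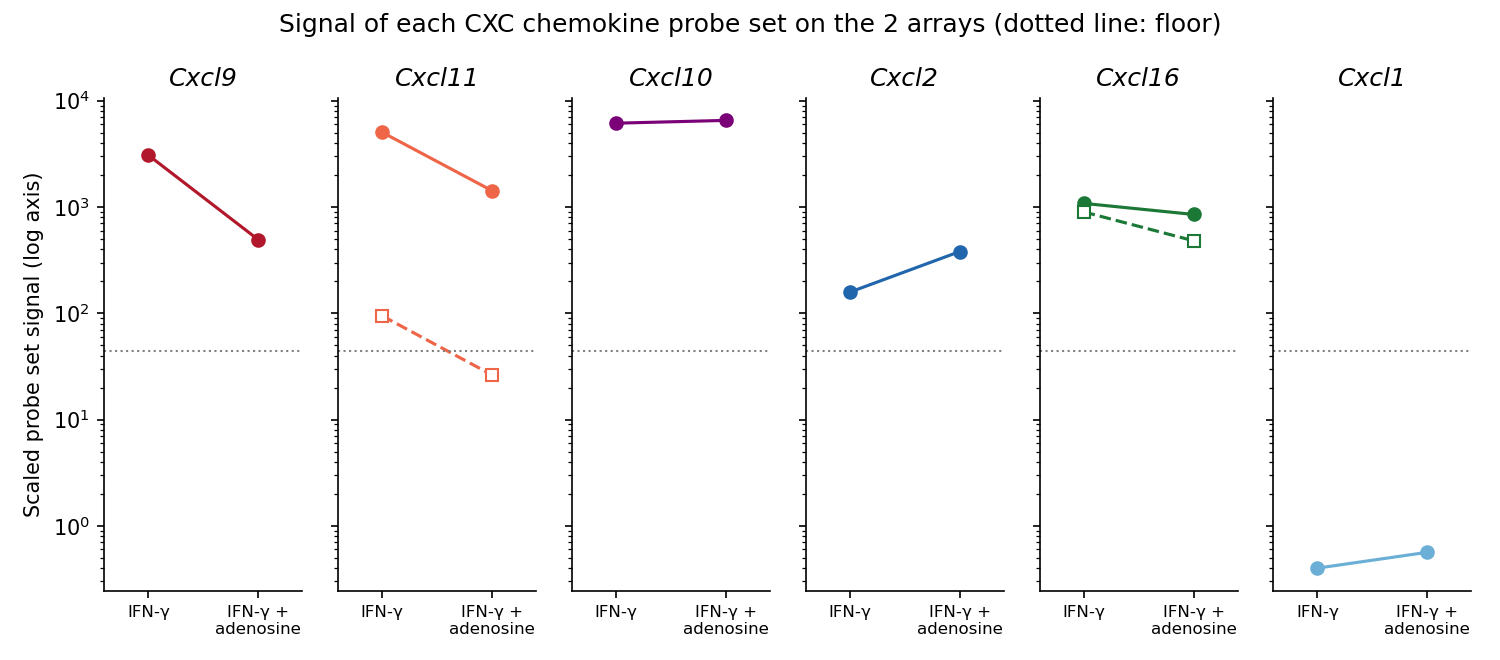
Scaled signal of every probe set of the 6 members (log axis) on the IFNg array and the array with adenosine added; filled circles and solid lines mark the brightest probe set of a gene, open squares and dashed lines a second one, and the dotted line the floor of 44.0. Cxcl9 and Cxcl11 slope down, Cxcl10 is nearly level at 6136 and 6521, Cxcl2 slopes up from 158 to 381, and Cxcl1 lies far below the floor on both arrays.

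Cxcl2, which encodes the neutrophil attractant MIP-2, read 158 with IFNg and 381 with adenosine added. The adenosine array was the higher one relative to the array median, by 2.41-fold (log2 ratio 1.27 ± 0.55), and 151 measured genes had a higher ratio. This direction rested on the scaling: the deposited signals were 158 and 135 (log2 ratio -0.23), and scaling on the hybridization controls gave 0.30. Its place among the probe sets moved up, from 7767 to 4466. Such a place uses only positions within each array, as quantile scaling does (log2 ratio 1.39), and cannot decide between the scalings. Only 1 probe set represented Cxcl2.

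Cxcl16, the membrane-anchored CXCR6 ligand, read 1080 and 850 by its brighter probe set and 899 and 481 by a second one, whose name marks it as matching several transcripts. Both were lower with adenosine, with log2 ratios of -0.35 ± 0.52 and -0.90 ± 0.52. The first lies within the scatter between probe sets and neither reached 2-fold. Both passed 2-fold as deposited, at -1.84 and -2.40. The brighter one was at -1.31 with control scaling. Of all measured genes, 2255 had a lower ratio than the brighter probe set, and its place on the array went from 1948 to 2253.

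Cxcl1, the other neutrophil attractant of the set, had deposited signals of 0.40 with IFNg and 0.20 with adenosine, far below the floor on each array, and no ratio is given. The neutrophil attractants were thus represented by Cxcl2 alone.

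**Figure D3:**
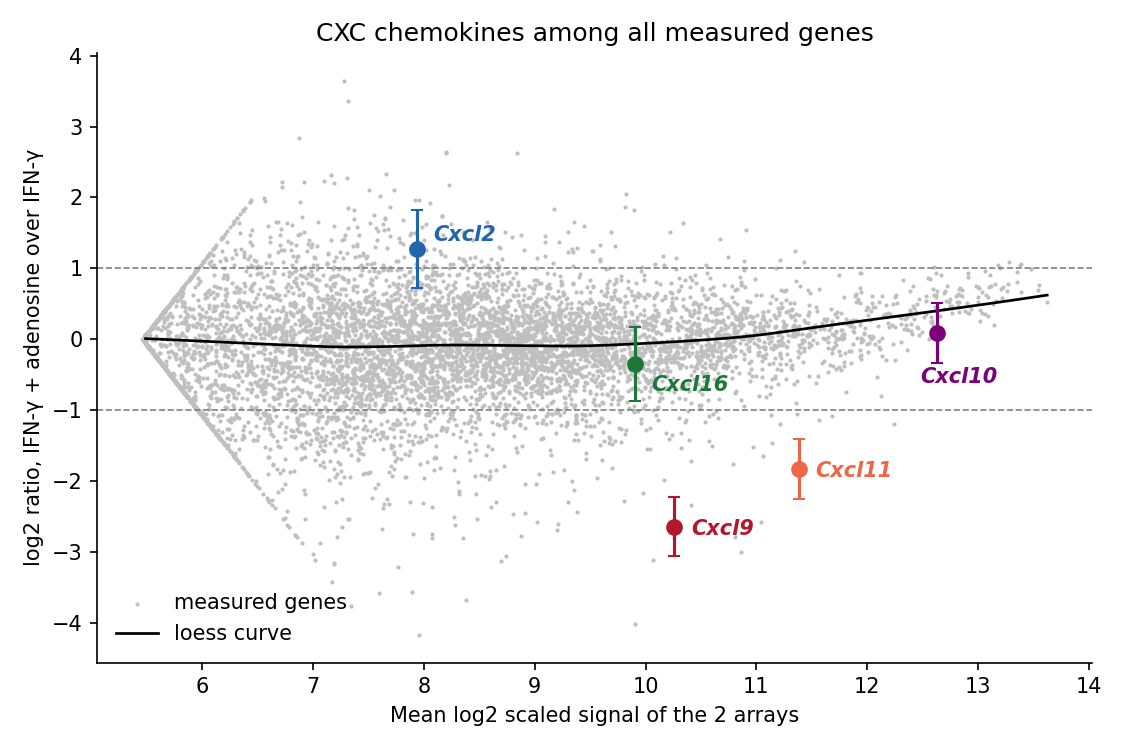
log2 ratio of adenosine plus IFNg over IFNg against the mean log2 scaled signal for 6818 measured genes (grey), with the 5 measured members in colour, error bars of 1 SD between probe sets, the loess curve in black and dashed lines at 2-fold. Cxcl9 and Cxcl11 lie well under the cloud at their signal, Cxcl10 lies 0.31 under the curve, which climbs at high signal, and Cxcl2 lies above the upper line.

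In order of ratio the members ran Cxcl9, Cxcl11, Cxcl16, Cxcl10 and Cxcl2. A difference between the log2 ratios of 2 genes is not moved by any single scaling factor per array, and so does not depend on the choice between centred and deposited values. Cxcl9 minus Cxcl10 was -2.73 ± 0.59 (combined SD) on the log2 scale, so that the Cxcl9 ratio was 6.63-fold lower than that of Cxcl10. Cxcl11 lay 1.91 ± 0.59 below Cxcl10. Cxcl9 and Cxcl11 differed from each other by 0.82 ± 0.59, and Cxcl16 and Cxcl10 by 0.43 ± 0.67, neither of which exceeds 2 SD. Cxcl2 was 1.18 ± 0.69 above Cxcl10, also within 2 SD. The widest gap, between Cxcl9 and Cxcl2, was -3.91 ± 0.69 (Cxcl9 minus Cxcl2). Of 10 pairs of measured members, 7 differed by more than 2 SD of probe set scatter. Cxcl16 passed only narrowly against Cxcl11 (2.21 SD) and Cxcl2 (2.13 SD), by its brighter probe set. With all probe sets averaged, Cxcl11 and Cxcl16 lay closer together, at -1.46 and -0.62. The count is a statement about these arrays and not a test between treatments.

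**Figure D4:**
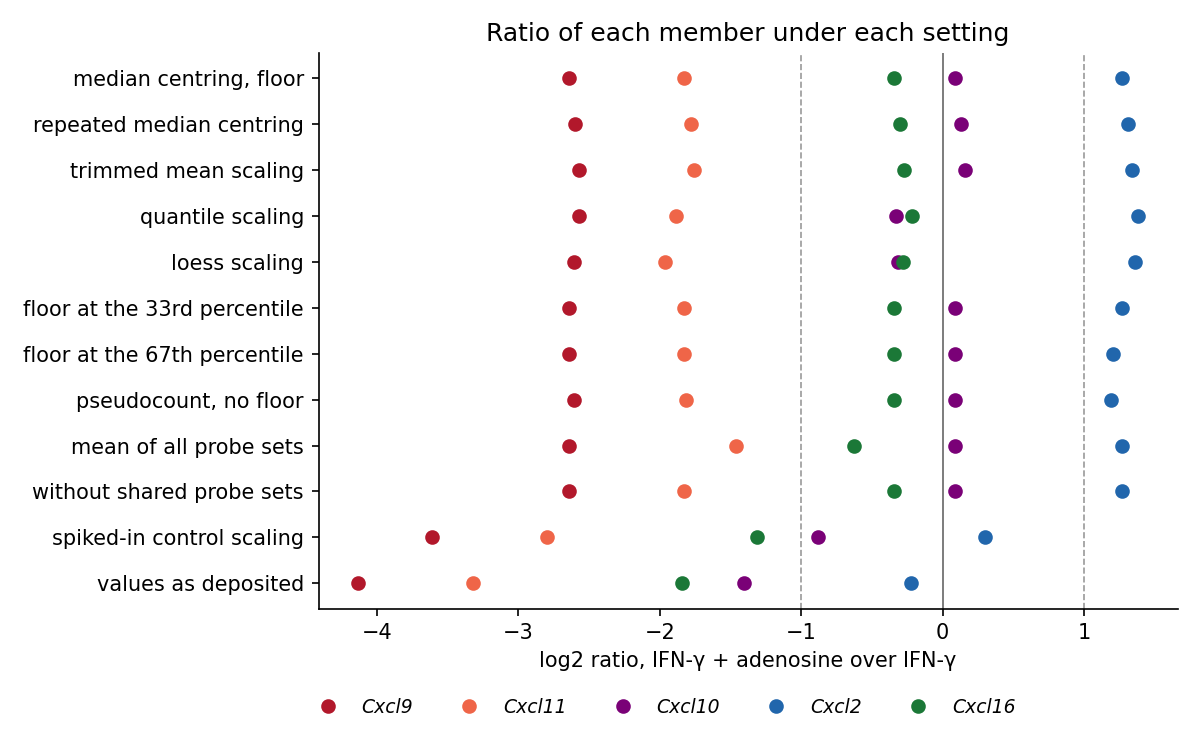
log2 ratio of each measured member (colours) under the scaling, floor and probe set choices named on the vertical axis, with a line at 0 and dashed lines at 2-fold. Cxcl9 and Cxcl11 stay left of the lower dashed line in every setting plotted, Cxcl10 and Cxcl2 each cross 0, and the last 2 settings move all members left together.

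The rest of the CXC family was mostly silent. Besides the members, 2 of the family's other 8 analysed chemokine genes were measured. Pf4, which encodes platelet factor 4, read 577 and 748 (log2 ratio 0.38, but -1.12 as deposited and -0.59 when scaled on the hybridization controls). Cxcl14 read 610 and 498 (-0.29), with a second probe set on the other side at 0.21, and stood at -1.79 as deposited and -1.26 with control scaling. Neither gene reached 2-fold after median centring, and both were 2-fold lower as deposited. Cxcl5, Ppbp, Cxcl12, Cxcl13, Cxcl15 and Cxcl17 stayed below the floor, as did all 7 analysed receptor genes of the family, among them Cxcr2 (3.70 and 2.26) and Cxcr3 (17.3 and 12.4). Cxcl3 and Cxcr1 were not analysed here.

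Among 9 measured chemokine genes of the other classes, 2 were at least 2-fold lower and none was 2-fold higher, against 10.1% and 4.52% of all measured genes. Their median log2 ratio was -0.37. As deposited all 9 were 2-fold lower, against 78.8% of genes, and with control scaling 6 were, against 3538 of 6975 genes. The 2 genes were Ccl12, a monocyte attractant, which went from 3056 to 606 (log2 ratio -2.33), and Ccl3, which encodes MIP-1 alpha, from 1233 to 406 (-1.60).

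Genes of the pathways that drive CXC chemokine transcription were mixed, and the counts below stand against the same shares of all measured genes, of which 10.1% lay 2-fold or more below and 4.52% as far above. From the IFNg receptor to its transcription factors, 13 genes were measured, with a median of -0.20, and 2 of them were 2-fold lower or more and none 2-fold higher. The receptor genes Ifngr1 and Ifngr2 had log2 ratios of 0.06 and 0.83, both negative as deposited and with control scaling. The receptor-associated kinase gene Jak2 was 2.10-fold lower, with a second probe set at -0.87. It fell short of 2-fold with quantile scaling (-0.96), loess scaling (-0.99) and all probe sets averaged (-0.97). Jak1 was at -0.06 (0.05 with quantile and 0.01 with trimmed mean scaling, and 0.20 with all probe sets averaged). Irf1, an activator of the interferon response, was at -0.25 ± 0.42, measured only by a probe set marked as matching several transcripts. Irf8, a further member of that factor family, was at -2.99 by its brightest probe set and -0.66 by a second one.

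Of 11 measured NF-kB subunits and regulators, 2 were at least 2-fold lower and 1 was 2-fold higher, with a median of -0.62. Nfkbiz, which encodes an atypical inhibitor protein, was 2.26-fold lower (second probe set -0.16) and the subunit gene Relb 2.00-fold lower. With the floor at the 67th percentile Nfkbiz and Relb were at -0.34 and -0.40. Relb also missed 2-fold with quantile and loess scaling (-0.89 each), trimmed mean scaling (-0.93), a pseudocount (-0.91) and median centring repeated (-0.96). Rel, the c-Rel subunit gene, was 2.92-fold higher (log2 ratio 1.55), with an IFNg signal of only 61.2, and was no longer 2-fold higher as deposited (0.05), with control scaling (0.58) or with the floor at the 67th percentile (0.12). Rela, the p65 subunit gene, was at -0.25, measured only by a probe set marked as matching several transcripts. Nfkbia, which encodes the inhibitor I kappa B alpha, was at -0.62, turning to 0.24 when its probe sets were averaged. Nfkb1 was not analysed here.

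Of 11 measured AP-1 and cAMP-responsive factors, 3 lay 2-fold or more below and 3 as far above the array median, around a list median of -0.37. Fosl2, an AP-1 subunit gene, was 10.3-fold higher from an IFNg signal of 49.6, close to the floor. Crem, a cAMP-responsive factor gene, was 3.53-fold higher (log2 ratio 1.82), but at 0.33 as deposited and 0.85 with control scaling. Junb was 2.07-fold higher but at -0.45 on the log2 scale as deposited and 0.08 with control scaling, and Jun was 3.80-fold lower.

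Proteins that bind AU-rich elements control the stability of chemokine transcripts such as Cxcl1 and Cxcl2. Of 9 measured genes for such proteins and their regulators, 1 was at least 2-fold lower, against 10.1% of all measured genes, and none was 2-fold higher, with a median of -0.31. This was Hnrnpd, which encodes AUF1, at 1845 and 735 (log2 ratio -1.33). Its only measured probe set was of the kind marked as matching several transcripts. With such probe sets left out, 7 genes of the list were measured and none was 2-fold lower, against 545 of 5393 genes. As deposited, 8 of the 9 were 2-fold lower, against 78.8% of genes. With control scaling 8 were as well, against 3538 of 6975 genes. Zfp36, which encodes tristetraprolin, was at -0.12, measured only by a probe set matching several transcripts. Its relatives Zfp36l1 and Zfp36l2 were at -0.31 and -0.22 by their brightest probe sets but at 2.05 and 1.23 by a second one. After median centring, the proteases that shed Cxcl16 from the cell surface were not 2-fold changed. Adam10 was at -0.32 and Adam17 at -0.61 by their brightest probe sets (a second one gave 0.03 for Adam17). Both were 2-fold lower as deposited (-1.82 and -2.10) and with control scaling (-1.29 and -1.58). The remaining 5 genes of the shedding and cleavage list were below the floor. The counts of these lists moved with the scaling. With loess scaling 1 gene was 2-fold lower in each of the IFNg, NF-kB and AP-1 lists, and in the deposited values 10 of 13, 10 of 11 and 7 of 11 genes were, against 78.8% of all measured genes. As deposited, no NF-kB gene and 1 AP-1 or cAMP-responsive gene was 2-fold higher.

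**Figure D5:**
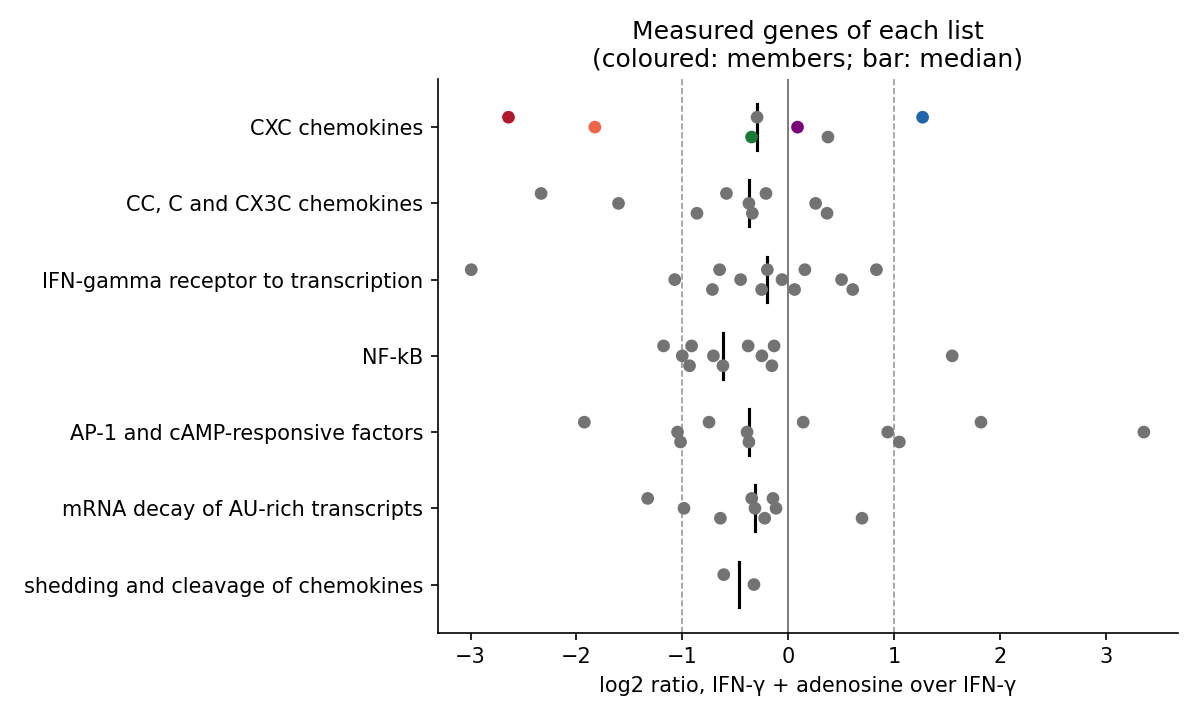
log2 ratio of every measured gene of the CXC family and of 6 related gene lists (points, members coloured as in the other plots), with the list median as a black bar and dashed lines at 2-fold; vertical offsets only separate points. The CXC family spans from -2.64 for Cxcl9 to 1.27 for Cxcl2 around a median of -0.29, and the list medians lie between -0.62 and -0.20.

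The genes most like each member were taken as the 2 measured genes nearest to it in log2 signal on the 2 arrays, so that likeness rests on 2 values per gene. For Cxcl9 they were Egr1, an immediate-early transcription factor gene (3221 and 462), at a distance of 0.11 on the log2 scale, and Ccl12 at 0.30. For Cxcl11 the nearest were Plek (3757 and 1364) and Mndal (3773 and 1207), at distances of 0.43 and 0.48. Cxcl10 was nearest to the ribosomal protein gene Rps15 (5787 and 6641) and to Hint1 (6014 and 6054). Cxcl2 was nearest to Ppp2r5d, a phosphatase subunit gene (153 and 393), and Hilpda, a lipid droplet gene (151 and 368), and Cxcl16 to Prr13 and the splicing factor gene Rbm17.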

How the data were processed

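Each array was deposited as 1 linear intensity for each of 22690 probe sets. Per the submitters' processing notes GCOS, the Affymetrix array software, was used; its signal algorithm and its target for scaling are details not given in the sources used here. Of 22626 gene probe sets, 20380 carried 1 symbol in the platform annotation, 691 several and 1555 none in the table used here. The latter groups entered the scaling but no gene result. Symbols were updated by Entrez identifier from the GRCm38.p6 RefSeq gene table.

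The log2 ratio of the deposited signals was centred on its median over gene probe sets above the deposited 50th percentile on both arrays, a shift of -1.50. The probe set with the highest mean signal stood for its gene. Scatter was taken from the 2 brightest probe sets of 2374 genes, both above the floor on each array, as their difference over the square root of 2, in 4 signal groups. The number of arrays limits the precision. Members were named whatever their value, with every probe set. Other CXC genes were named if measured. In each other list up to 4 genes past 2-fold were named, plus a fixed set of pathway genes. Members and lists were chosen with earlier results of these data known. Alternatives were other scalings, the 33rd or 67th percentile as the floor, a pseudocount of 16 without a floor, other probe set choices, and thresholds of 1.5-fold and 3-fold. Calculations used Python 3.11.15 and were tested on simulated data.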

Additional observations from a re-analysis of the deposited data

How the results depend on the processing

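No paired analysis was possible because there is a single array per treatment, and for the same reason none could be omitted. The differences from Cxcl10 moved by less than the combined SD of probe set scatter in all 11 alternatives. Several alternatives could not move them, or the difference of medians below. Deposited values, trimmed mean scaling, control scaling and repeated centring differ from the main setting by a single factor. Leaving out probe sets that match several transcripts did not touch the brightest ones of these members. The Cxcl9 difference changed only with quantile scaling (-2.24), loess scaling (-2.29) and a pseudocount (-2.69). Cxcl9 minus Cxcl10 ran from -2.73 to -2.24, Cxcl11 minus Cxcl10 from -1.91 to -1.55, and Cxcl2 minus Cxcl10 from 1.10 to 1.71. The CXCR3 ligand median minus that of the other members ran from -2.50 to -1.79. It moved by less than the SD of probe set scatter of a single log2 ratio over all signal groups (0.52). The log2 ratios of single members moved by more than the SD in 2 of 11 alternatives. In the values as deposited they were -4.14 for Cxcl9, -3.32 for Cxcl11, -1.41 for Cxcl10, -1.84 for Cxcl16 and -0.23 for Cxcl2, the last with its direction turned. With scaling on hybridization controls they were -3.61, -2.79, -0.88, -1.31 and 0.30. The medians became -3.32 and -1.03 as deposited for the CXCR3 ligands and the other members, and -2.79 and -0.51 with control scaling. These shifts follow from the single factor applied to the adenosine array. Members at least 2-fold lower numbered 2. There were 4 as deposited, against 78.8% of genes, and 3 with control scaling, against 3538 of 6975 genes. The 1 member higher became 0 as deposited, with control scaling and at a 3-fold threshold.

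Over all genes, 308 were at least 2-fold higher and 691 lower (69.2% of these calls lower). As deposited, 10 were higher and 5605 lower (99.8%), and with control scaling 33 and 3538 (99.1%). Quantile scaling put 58.8% of calls on the lower side. Higher genes numbered 599 with the floor at the 33rd percentile, 133 with the floor at the 67th, 879 at 1.5-fold and 67 at 3-fold. Lower genes numbered 328 with the floor at the 67th percentile, 1489 at 1.5-fold and 202 at 3-fold. Median centring repeated until the floor was set on scaled signals was chosen after seeing the data and changed no call of a member.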

Other observations

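The gene neighbourhoods of the members gave the following values, with the neighbours chosen after results had been seen, as the 5 protein-coding genes on either side of each chemokine cluster in the RefSeq gene order and any between them. Around Cxcl9, Cxcl10 and Cxcl11, 5 of 11 other genes were measured, with log2 ratios from -1.06 to 0.22 and a median of -0.03. Uso1, which encodes a vesicle tethering protein, was at -1.06 and Naaa, an amidase gene, at -1.04. Sdad1, next to Cxcl9, was at 0.22, and Nup54, a nuclear pore gene next to Cxcl11, at -0.03. Art3, which lies between Cxcl9 and Cxcl10 in this order, was below the floor on both arrays. Of the 5 measured neighbours, 2 were at least 2-fold lower, against 10.1% of all measured genes, and none was 2-fold higher, against 4.52%. None of them was as low as Cxcl9 or Cxcl11, but of all 6818 measured genes only 33 and 136 had lower ratios than these members. Around Cxcl1 and Cxcl2, 1 of 10 other genes was measured, the chemokine gene Pf4.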
